A study of Mus musculus with 18 samples.

Results

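The ventricular myocardium of leptin-deficient ob/ob mice on a restricted food supply was compared with that of ob/ob mice that went on eating freely. Of the 18 arrays of the study, 9 belong to this comparison, 5 from the restricted mice and 4 from the ad libitum mice, and they were taken by their labels. All 9 carry the ob/ob genotype on the C57Bl/6J background, so neither group makes working leptin, the satiety hormone of fat tissue. The mice were 6 months old when the groups were formed. For 1 month the restricted group received as much food as ob/ob mice that were given leptin by osmotic mini-pump ate of their own accord, while the ad libitum group received no treatment. The leptin treated ob/ob mice (n = 5) are used here as the group matched in intake, and untreated wild type C57Bl/6J mice (n = 4), which were of similar or somewhat greater age, only for the levels of a few genes. Tissue was taken in the early morning. The labels give neither the time since the last meal, nor body weights, nor whether an array held the RNA of more than 1 animal, so the p-values measure the spread between arrays.

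The heart draws most of its energy from fatty acids. When food is short, fatty acids and ketone bodies reach it in greater amounts, and PPAR-alpha, a nuclear receptor that fatty acids activate, raises the genes that import, transport, oxidise and store them. Fatty acids that are not burned are kept as triacylglycerol in lipid droplets, which are guarded by coat proteins and opened by lipases. Around the muscle cells lie fibroblasts, which make collagen, endothelial cells, which line the vessels, and macrophages. All of them contribute RNA to a piece of ventricle.

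The check of the tissue came first. Myl7 and Myl4, myosin light chains of atrial muscle, and Sln, the atrial inhibitor of the calcium pump, should be near background in ventricle. Myl7 had a signal of 635, 3448, 3548, 3.58 and 159 on the restricted arrays 1 to 5, against 438, 2.89, 4.73 and 2.52 on the ad libitum arrays 1 to 4. Myl4 read 555, 3213, 3573, 48.4 and 185 on the restricted arrays and 430.2, 47.8, 65.2 and 65.5 on the ad libitum arrays. Restricted arrays 2 and 3 were thus the highest of the 9 for both light chains, restricted arrays 1 and 5 and ad libitum array 1 lay between, and restricted array 4 and the other ad libitum arrays were low. Sln, with a signal of 166, 1918, 2038, 1.43 and 38.2 on the restricted arrays and 98.1, 0.956, 1.10 and 1.54 on the ad libitum arrays, ranked the arrays above background in the same order. The mean log2 differences of 4.16 for Myl7, 2.49 for Myl4 and 3.83 for Sln gave exact permutation p-values of 0.111, 0.159 and 0.111 (two-sided, 0.159 each after adjustment over the 3 genes), where the smallest p that 5 against 4 arrays allow is 0.0159. Of 11 atrial markers tested with limma, 0 were called, but 6 had an unadjusted p under 0.05 and all 11 had a log2 change above 0 (median 1.13, and 0.19 without restricted arrays 2 and 3). Their summed signal was 3261 to 17808 on the restricted arrays, 3261 to 4748 on restricted arrays 1, 4 and 5, and 2400 to 3963 on the ad libitum arrays.

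**Figure D1:**
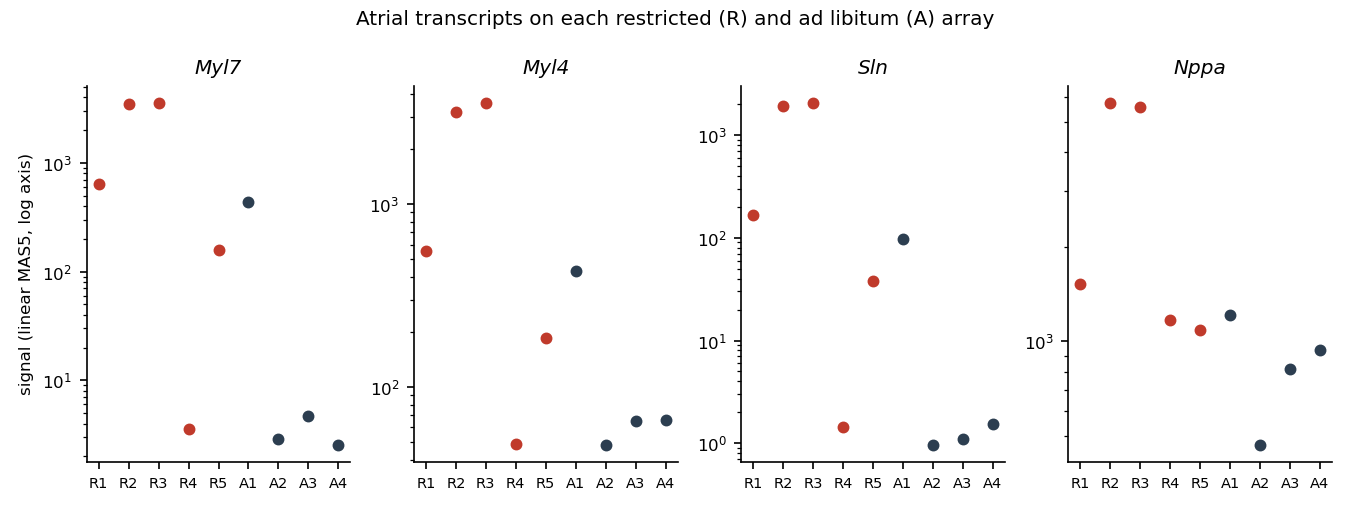
Signal of 4 atrial transcripts (Myl7, Myl4, Sln and Nppa) on each array, on a log axis in linear MAS5 units. R1 to R5 (red) are the restricted arrays and A1 to A4 (dark) the ad libitum arrays. R2 and R3 are highest in every panel, and for Myl7, Myl4 and Sln A1 lies far above A2 to A4.

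Because restricted arrays 2 and 3 stood apart in this way, the counts of calls by gene list below are also given without them. The defining markers of ventricular muscle were present on all 9 arrays, with a summed signal of 59233 to 75847 over 12 markers on the restricted arrays and 57022 to 66186 on the ad libitum arrays. In a principal component analysis of the 9 arrays the first component (23.4% of the variance) did not part the groups. The second (20.7%) did, with scores of -22.0 to -0.95 on the restricted arrays and 13.1 to 22.3 on the ad libitum arrays. Over all 18 arrays the median signal was 22.3 to 31.8, and the Gapdh probes at the 3′ end gave 0.797 to 0.868 of the signal of those at the 5′ end, which reports on RNA integrity. The same ratio for the actin probes was 1.13 to 1.41 on the restricted arrays, with 1.41 and 1.39 on restricted arrays 4 and 5, and 1.16 to 1.33 on the ad libitum arrays. Lepr, the leptin receptor, had a signal of 24.7 to 48 on the restricted arrays and 21.7 to 40.1 on the ad libitum arrays, with a log2 change of 0.04 ± 0.30 (limma, adjusted p = 0.967). These values are from the probe set with the highest mean. Its 2 other tested probe sets also had a change above 0, and 1 of them was called.

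Under restriction some genes of fatty acid use and lipolysis were higher, and most fibrillar collagens, the apelin receptor, a few genes of ketone use and of antigen presentation and the natriuretic peptide Nppb were lower. Of 13359 genes tested with limma on log2(signal + 5.13), 725 (5.43%) differed between the restricted and the ad libitum arrays at a Benjamini-Hochberg adjusted p under 0.05, the threshold for every call below. Of these, 328 (2.46%) were higher and 397 (2.97%) lower in the restricted mice. Among the called genes 22 were at least 2-fold higher and 43 at least 2-fold lower (19 and 51 without restricted arrays 2 and 3), and the median size of their log2 change was 0.53, while over all genes the median was -0.00. An unadjusted p under 0.05 was found for 2560 genes. Without restricted arrays 2 and 3 the calls numbered 358 (2.68%), with 132 higher (0.988%) and 226 lower (1.69%). Of the 725 called with all arrays, 323 were also called without the pair, and all 725 kept the sign of their change. Fewer restricted arrays remain in that fit, so a call can be lost without a smaller change. Among lost calls, the log2 change of Acsl5 was -0.39 with all arrays and -0.44 without the pair. That of Hk2 was -0.52 and -0.38. Without ad libitum array 3 the count was 445 and without ad libitum array 4 it was 444. Leaving out each of the 9 arrays in turn, 327 genes were called every time, 136 higher and 191 lower.

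**Figure D2:**
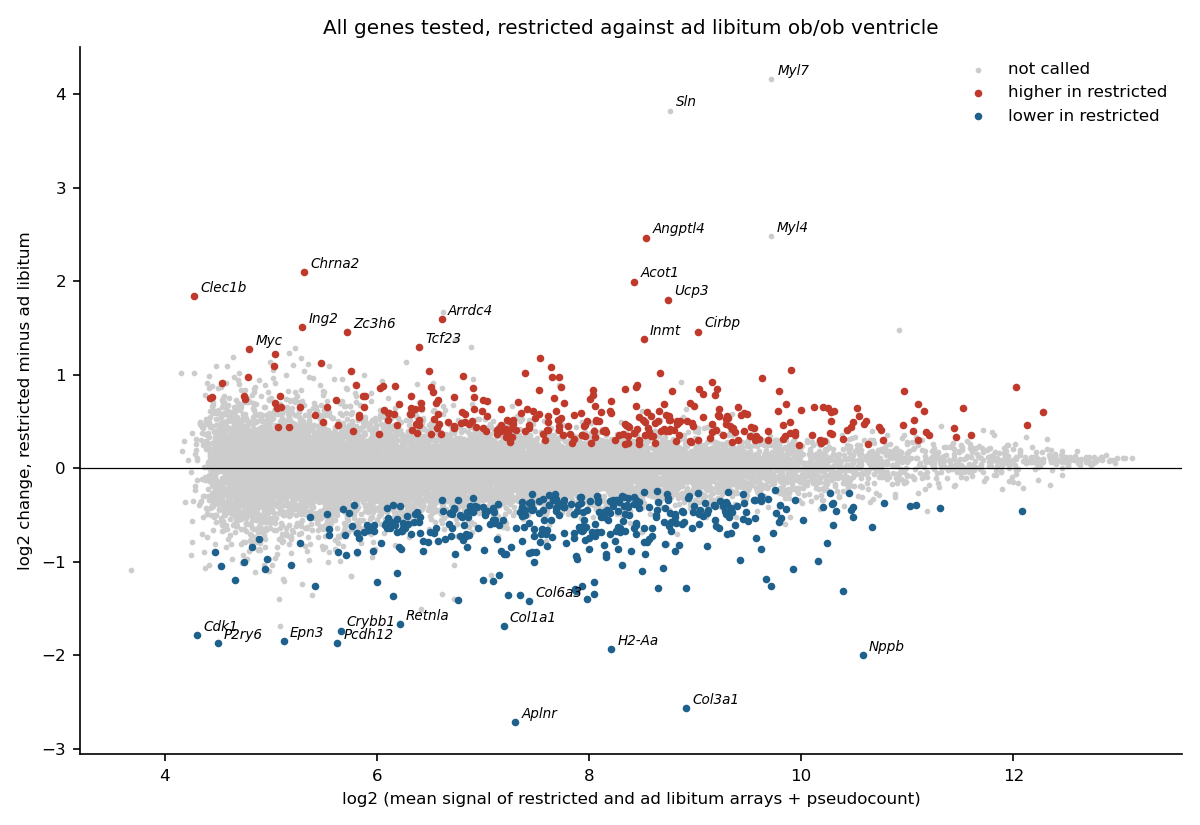
Each point is 1 of the 13359 genes tested, with log2 of its mean signal over the 9 arrays plus 5.13 on the x axis and its log2 change, restricted minus ad libitum, on the y axis. Red points were called higher and blue points lower in the restricted mice. Angptl4 and Aplnr have the largest called changes, 2.47 and -2.72, while Myl7, Sln and Myl4 were not called.

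Angptl4, whose product inhibits lipoprotein lipase and which PPAR-alpha drives, had the largest called rise. Its signal was 557, 663, 659.6, 813 and 435 on the restricted arrays, against 112, 81.1, 126 and 112 on the ad libitum arrays. The groups did not overlap, and the log2 change was 2.47 ± 0.29 (limma, adjusted p = 0.000151). Ucp3, the uncoupling protein of muscle mitochondria, read 543, 729, 628, 849.9 and 555 on the restricted arrays and 196, 158, 215 and 168 on the ad libitum arrays, a log2 change of 1.80 ± 0.22 (adjusted p = 0.000165). Acot1, a thioesterase that frees fatty acids from coenzyme A, read 392, 551, 569, 679 and 540.0 on the restricted arrays and 120.1, 123, 148 and 135 on the ad libitum arrays, a log2 change of 2.0 ± 0.34 (adjusted p = 0.00272). Each restricted array was higher than each ad libitum array for these 3 genes, and each was also called without restricted arrays 2 and 3 (log2 changes of 2.39, 1.77 and 1.96). Of 9 thioesterases tested 2 rose and 0 fell, also without that pair. Acot2, the mitochondrial relative of Acot1, also rose, with a log2 change of 0.59 ± 0.11 (adjusted p = 0.00517). The thioesterases of this cluster are near-identical copies, and probes of 1 may take up transcripts of another.

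Among 30 tested genes that respond to PPAR-alpha, 14 rose and 0 fell, and the median log2 change was 0.34, beside -0.00 over all genes. Without restricted arrays 2 and 3, 10 rose and 0 fell. Several of the 14 also belong to the steps described below. They include Eci2, an isomerase that lets unsaturated fatty acids enter beta-oxidation, which averaged 1775 ± 124 in restricted mice and 1204 ± 91.7 in ad libitum mice (signal, SD, n = 5 and 4) with a log2 change of 0.56 ± 0.08 (adjusted p = 0.000715). Ppara itself was not called, with a signal of 193 to 400.2 on the restricted arrays and 346 to 431 on the ad libitum arrays. Its coactivator Ppargc1a was also not called. It read 631 to 893 on the restricted arrays and 538 to 607 on the ad libitum arrays, without overlap (log2 change of 0.36 ± 0.11, adjusted p = 0.0679).

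Import and binding of fatty acids changed in a few genes. Of 17 tested, 3 rose and 1 fell (3 and 0 without restricted arrays 2 and 3). Slc27a1, a fatty acid transport protein of the cell membrane, had a signal of 632, 731, 637, 760.2 and 629 on the restricted arrays and 369, 468, 353 and 371 on the ad libitum arrays. Its log2 change was 0.79 ± 0.10 (adjusted p = 0.000268) and its groups did not overlap. Dbi, which binds acyl-CoA in the cytosol, rose by a log2 change of 0.41 ± 0.09 (adjusted p = 0.0115), whereas Acsl5, an acyl-CoA synthetase, fell by a log2 change of -0.39 ± 0.10 (adjusted p = 0.0346). The call of Acsl5 was lost without restricted arrays 2 and 3 (adjusted p = 0.0658) and without any 1 of restricted arrays 1, 3, 4 and 5 and ad libitum arrays 2, 3 and 4 (adjusted p up to 0.109). Cd36, the main fatty acid receptor of the heart, was at 4649.9 to 5539 on the restricted arrays and 4056 to 4380.2 on the ad libitum arrays, with an adjusted p of 0.142. Lpl, which frees fatty acids from lipoproteins, overlapped between the groups (6841 to 9008 on the restricted arrays and 6490.4 to 7558 on the ad libitum arrays, adjusted p = 0.722).

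The carnitine shuttle carries fatty acids into mitochondria, and malonyl-CoA holds it back. Of its 16 tested genes 3 rose and 0 fell (4 and 0 without restricted arrays 2 and 3). Cpt1a, the carnitine palmitoyltransferase that predominates in liver, read 420.4, 663, 512, 466 and 492 on the restricted arrays and 309.6, 317, 283 and 343 on the ad libitum arrays (log2 change of 0.68 ± 0.13, adjusted p = 0.0062). Mlycd, which breaks malonyl-CoA down, rose by 0.58 ± 0.10 on the log2 scale (adjusted p = 0.00289), and Slc25a20, the carrier of acylcarnitines through the inner membrane, by 0.47 ± 0.10 (adjusted p = 0.0116). The groups did not overlap for any of the 3. With the mean log2 signal of Myl7, Myl4 and Sln as a covariate in the limma fit, Cpt1a was not called (adjusted p = 0.0586).

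Of 25 tested genes of beta-oxidation, 3 rose and 0 fell (2 and 0 without restricted arrays 2 and 3), with a median log2 change of 0.15. Beside Eci2 these were Ehhadh, a peroxisomal enzyme, with a log2 change of 0.86 ± 0.19 (adjusted p = 0.0148), and Eci1, the mitochondrial isomerase, with 0.35 ± 0.09 (adjusted p = 0.0374). The call of Ehhadh was lost without restricted arrays 2 and 3 (adjusted p = 0.0559), and that of Eci1 without any 1 of restricted arrays 2, 4 and 5 and ad libitum arrays 1, 2, 3 and 4 (adjusted p up to 0.0961). Acaa2, the thiolase of the last step, had 4619 to 5569.8 on the restricted arrays and 3648 to 4356 on the ad libitum arrays, without overlap, but an adjusted p of 0.0541. Its 2 other tested probe sets also had a change above 0, and 1 of them was called. The respiratory chain and ATP synthase showed 0 calls among 72 tested genes by limma, also without restricted arrays 2 and 3. Their median log2 change was 0.08, with 63 above 0, and 2 genes had an unadjusted p under 0.05. The citric acid cycle likewise had 0 calls among 18 genes by limma, with or without that pair, and 2 genes at an unadjusted p under 0.05.

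Lipid droplets are governed by lipases, by their inhibitors and by coat proteins. Of 17 tested genes of the droplet, 5 rose and 0 fell (3 and 0 without restricted arrays 2 and 3), while the median log2 change of the list was 0.06. Pnpla2, the lipase that starts the breakdown of triacylglycerol, had a signal of 2117, 2826, 2369, 2825 and 2654 on the restricted arrays and 1342, 1419, 1540.0 and 1445 on the ad libitum arrays. Every restricted array lay above every ad libitum array (log2 change of 0.82 ± 0.13, adjusted p = 0.00111). Cidea, which promotes the fusion of droplets, read 616, 801, 746, 816 and 811 on the restricted arrays and 409, 389, 444 and 424 on the ad libitum arrays (log2 change of 0.85 ± 0.10, adjusted p = 0.000151). The coat protein Plin4 rose by a log2 change of 0.60 ± 0.11 (adjusted p = 0.00529). The other 2 calls were less stable. Lipe, hormone-sensitive lipase, averaged 362 ± 61.5 in restricted mice and 221 ± 54.6 in ad libitum mice (log2 change of 0.72 ± 0.19, adjusted p = 0.0397), and it was not called without restricted arrays 2 and 3 (adjusted p = 0.139) nor without any 1 of restricted arrays 2, 3, 4 and 5 and ad libitum arrays 3 and 4 (adjusted p up to 0.135). Plin5, which ties droplets to mitochondria, had a log2 change of 0.44 ± 0.12 (adjusted p = 0.0456), with no overlap between the groups, and lost its call without each of the 9 arrays in turn (adjusted p up to 0.138).

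The other coat protein Plin2 overlapped between the groups, at 488 to 699 on the restricted arrays and 448 to 579.8 on the ad libitum arrays (adjusted p = 0.493). G0s2, the inhibitor of Pnpla2, was at 350.3, 279, 381, 315 and 389.9 on the restricted arrays and 449, 372, 389.5 and 431 on the ad libitum arrays, with overlap and no call (log2 change of -0.26 ± 0.12, adjusted p = 0.26). Triacylglycerol synthesis had 1 higher gene and 0 lower among 12 tested, and 0 and 0 without restricted arrays 2 and 3. That gene was Agpat2, an acyltransferase of the middle of the pathway (log2 change of 0.61 ± 0.13, adjusted p = 0.0107, and 0.0919 without restricted arrays 2 and 3). Dgat1 and Dgat2, which add the last fatty acid, had log2 changes of 0.29 ± 0.09 and 0.32 ± 0.14 with adjusted p-values of 0.0781 and 0.231. Gpam, which adds the first, had 0.26 ± 0.09 (adjusted p = 0.114), and Agpat3 had 0.25 ± 0.07 (adjusted p = 0.059). The arrays of both groups did not overlap for Dgat1, Gpam and Agpat3.

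Cidea and Lipe are also expressed in fat cells, so markers of adipocytes were read on each array. Adipoq, made by fat cells, read 4.0, 26.4, 56.3, 0.644 and 0.653 on the restricted arrays and 7.23, 0.836, 2.26 and 1.93 on the ad libitum arrays, and Cidec, a droplet protein, read 20.2, 9.28, 19.6, 9.15 and 2.05 on the restricted arrays and 0.463, 5.65, 0.944 and 12.6 on the ad libitum arrays. Adipoq was highest on restricted arrays 2 and 3, the arrays with most atrial signal, and near background on restricted arrays 4 and 5. The hormones Retn and Lep did not follow that order. Retn read 93.7, 26.5, 36.6, 35.5 and 33.8 on the restricted arrays and 39, 78.2, 50.1 and 6.53 on the ad libitum arrays, with no call (adjusted p = 0.869), and Lep read 13.8, 3.35, 10.0, 11.1 and 2.06 on the restricted arrays and 2.18, 10.9, 3.38 and 14.5 on the ad libitum arrays. Cidea is itself on the list of 8 adipocyte markers. The summed signal of the 7 others, most of it from Fabp4, was 5095 to 6113 on the restricted arrays and 4627 to 5595 on the ad libitum arrays. The part of fat cells in the results of Cidea and Lipe was not tested.

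**Figure D3:**
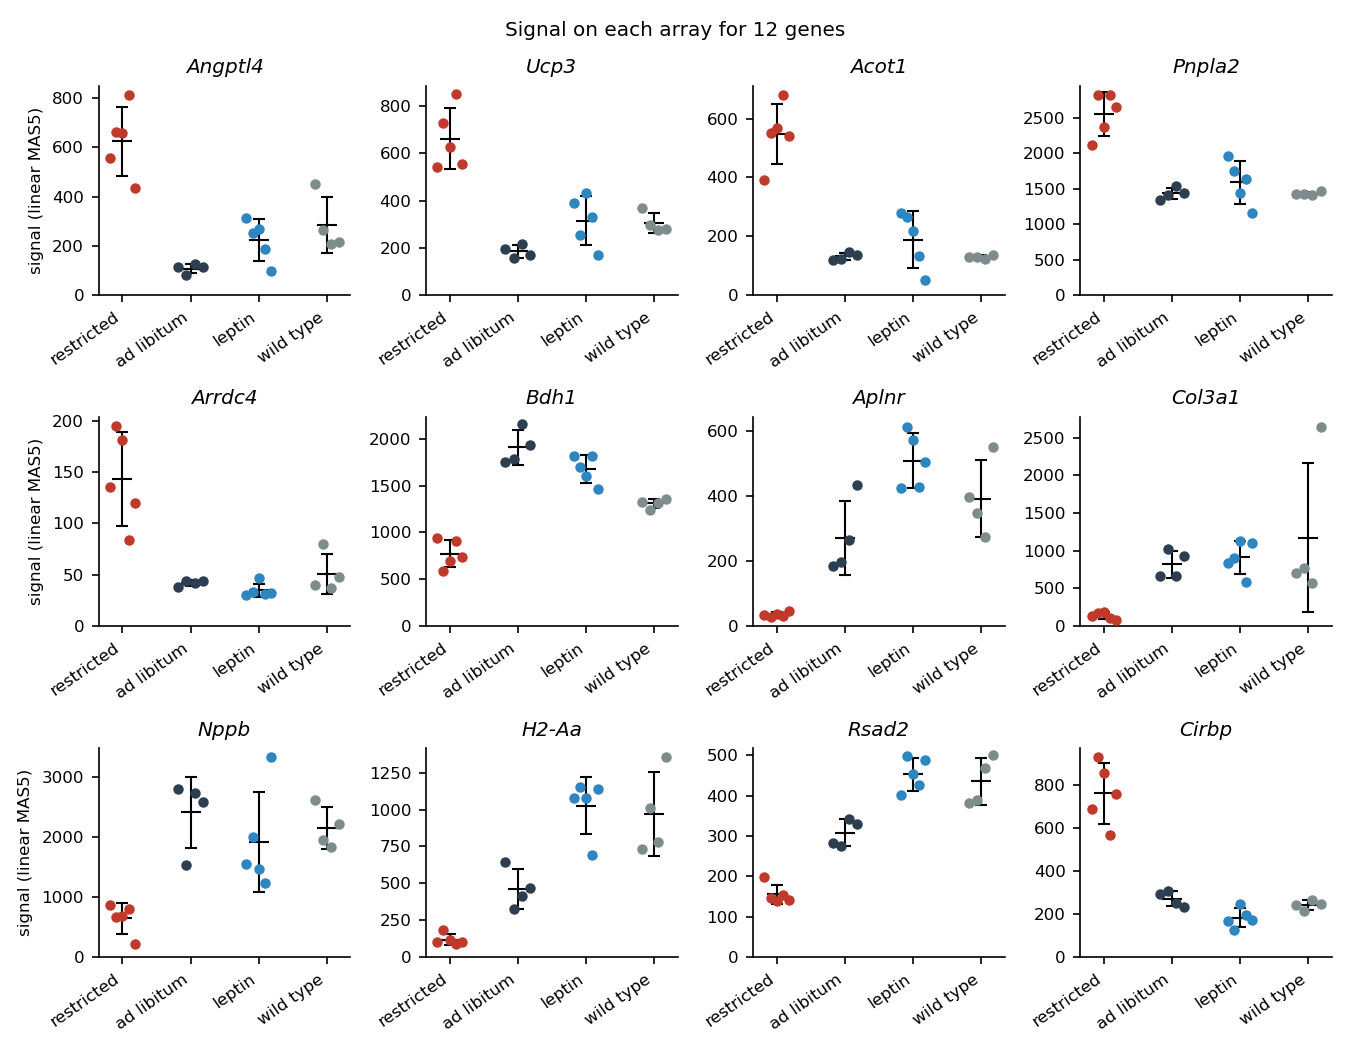
Signal of 12 genes on every array, in linear MAS5 units, with groups from left to right restricted, ad libitum, leptin treated (all ob/ob) and wild type. Points are arrays, and the bar with whiskers is the mean ± SD. The 12 genes are a selection from those called between the restricted and ad libitum arrays. The restricted points lie apart from the ad libitum points in all 12 panels, which follows in part from that selection.

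Some genes of glucose handling were called, at a rate near that over all genes tested. Over all genes the share called was 5.43%, and 2.68% without restricted arrays 2 and 3. Pdk4, the kinase that shuts pyruvate dehydrogenase and so spares glucose, read 4538, 5587, 5197, 6522 and 4932 on the restricted arrays and 3022, 2581, 3589 and 2592 on the ad libitum arrays, without overlap (log2 change of 0.86 ± 0.23, adjusted p = 0.0341). The call was lost without restricted arrays 2 and 3 (adjusted p = 0.129) and without any 1 of restricted arrays 2, 3, 4 and 5 and ad libitum arrays 1, 2 and 4 (adjusted p up to 0.0948). It was the only call among 13 genes of pyruvate dehydrogenase and its regulators. Of 23 tested genes of glucose uptake and glycolysis 0 rose and 2 fell (0 and 1 without restricted arrays 2 and 3), and the median log2 change was -0.02. Pfkl, a subunit of phosphofructokinase, was 512, 554, 453, 667 and 634 on the restricted arrays and 874, 883, 1012 and 1019 on the ad libitum arrays (log2 change of -0.75 ± 0.11, adjusted p = 0.000984). Hk2, the insulin-regulated hexokinase, fell by a log2 change of -0.52 ± 0.11 (adjusted p = 0.0105, and 0.0785 without restricted arrays 2 and 3). The groups overlapped for neither. The glucose transporters Slc2a1 and Slc2a4 were not called (log2 changes of -0.36 ± 0.12 and -0.28 ± 0.11, adjusted p-values of 0.107 and 0.173).

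The alpha-arrestins Txnip and Arrdc4 restrain glucose uptake, and their transcripts follow glucose metabolites through the factor MondoA. Arrdc4 had a signal of 136, 195, 181, 83.9 and 120.1 on the restricted arrays and 38.3, 43.9, 41.7 and 44 on the ad libitum arrays (log2 change of 1.60 ± 0.22, adjusted p = 0.000607). Txnip read 3064, 3767, 3532, 3871 and 3709 on the restricted arrays and 2418, 1912, 2557 and 2285 on the ad libitum arrays (log2 change of 0.65 ± 0.15, adjusted p = 0.0184). Both were higher on every restricted array. The call of Txnip was lost without restricted arrays 2 and 3 (adjusted p = 0.0909) and without ad libitum array 2 (adjusted p = 0.061). These were the 2 calls among 5 alpha-arrestins, and 1 of them, Arrdc4, was called without that pair. Arrdc2 overlapped between the groups, with a log2 change of 0.63 ± 0.33 (adjusted p = 0.335).

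A few genes of ketone and branched-chain amino acid breakdown fell. Bdh1, the dehydrogenase that starts the oxidation of hydroxybutyrate in the mitochondrion, had a signal of 939, 592, 693, 909.8 and 735 on the restricted arrays and 1755, 1783, 2154 and 1937 on the ad libitum arrays. The lowest ad libitum array was well above the highest restricted array, and the log2 change was -1.31 ± 0.12 (adjusted p = 2.6e-05). Oxct1, the transferase of the next step, read 3504, 3339.5, 3271, 4379.9 and 3848 on the restricted arrays and 5055, 4671, 5213 and 5112 on the ad libitum arrays (log2 change of -0.46 ± 0.10, adjusted p = 0.015, and 0.118 without restricted arrays 2 and 3). Dbt, a subunit of the enzyme that commits branched-chain amino acids to breakdown, fell by a log2 change of -0.60 ± 0.11 (adjusted p = 0.0047). These were the 3 calls among 19 genes of ketone and branched-chain amino acid breakdown, against 0 that rose (0 and 2 without restricted arrays 2 and 3). Ivd, of leucine breakdown, did not overlap between the groups but had an adjusted p of 0.0528 (log2 change of -0.41 ± 0.12).

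**Figure D4:**
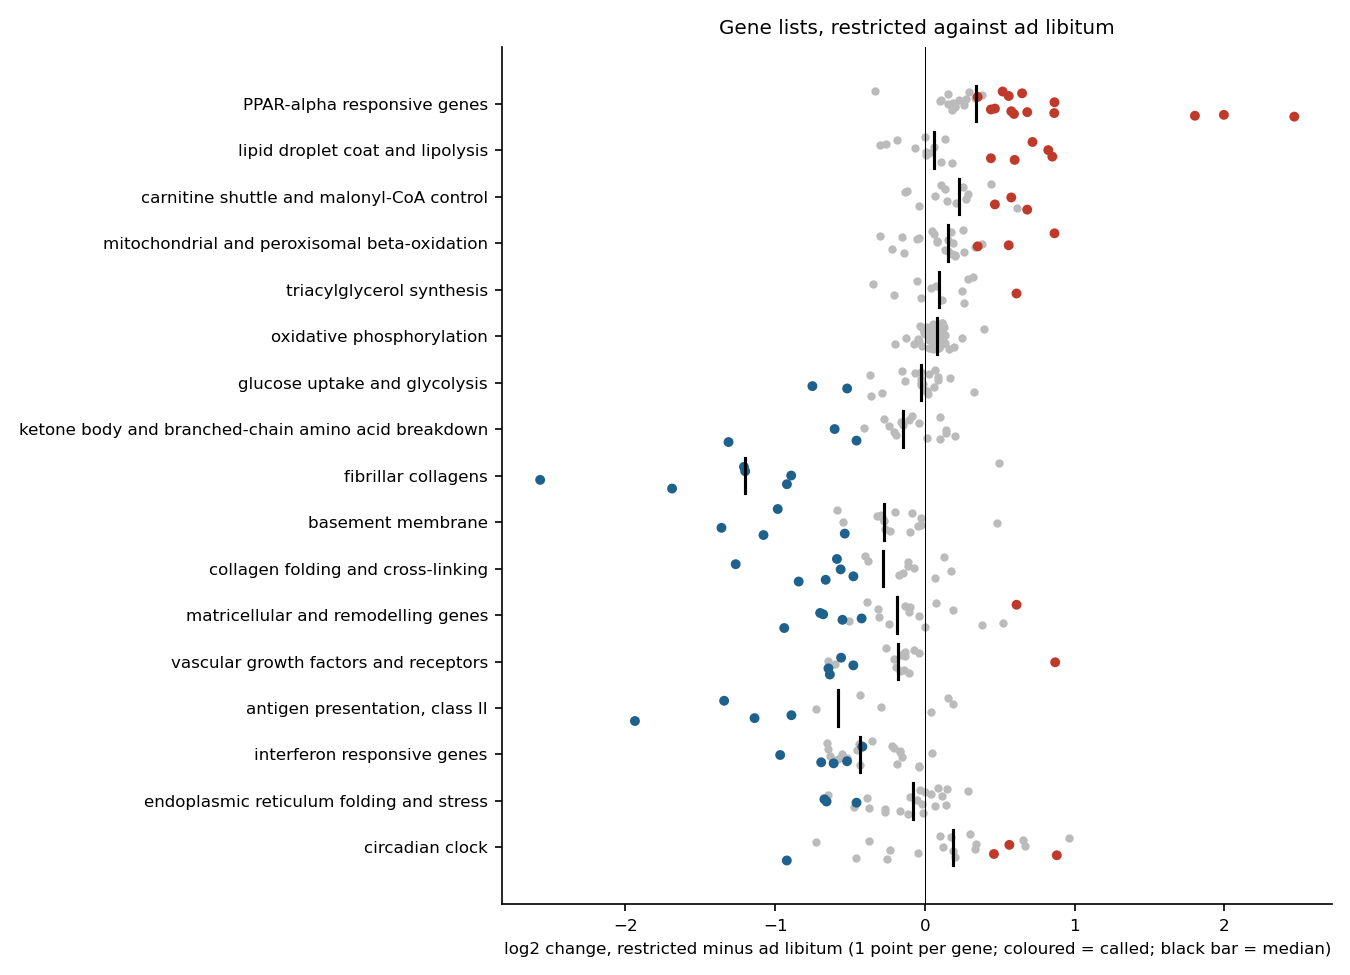
Log2 change, restricted minus ad libitum, of each tested gene in 17 lists. Coloured points were called (red higher, blue lower), grey points were not, and the black bar is the list's median. The PPAR-alpha list has 14 red and 0 blue points, the fibrillar collagens 0 red and 6 blue, and oxidative phosphorylation has none of either colour.

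Collagen transcripts fell in the restricted mice. Of 7 tested fibrillar collagens 0 rose and 6 fell (0 and 5 without restricted arrays 2 and 3), and the median log2 change was -1.20. Col3a1, the collagen of compliant tissue, had a signal of 139, 174, 189, 106 and 79.2 on the restricted arrays and 666, 1018, 661 and 926 on the ad libitum arrays. Its log2 change was -2.57 ± 0.37 (adjusted p = 0.000681), and the groups lay far apart. Col1a1, a chain of the main collagen of scar and tendon, read 78.8, 78.7, 81.9, 49.4 and 40.1 on the restricted arrays and 205, 195, 211 and 258 on the ad libitum arrays (log2 change of -1.69 ± 0.34, adjusted p = 0.00671). Col5a2 and Col5a3, chains of the collagen that seeds fibrils, had log2 changes of -1.20 ± 0.21 and -1.21 ± 0.14 (adjusted p-values of 0.00327 and 0.000122). The other tested probe set of Col5a2 pointed the opposite way. Col6a3, a microfibrillar collagen outside that list, was 98.7, 74.8, 93, 112 and 65.5 on the restricted arrays and 176, 255, 262 and 296 on the ad libitum arrays (log2 change of -1.42 ± 0.17, adjusted p = 0.000145). Fewer fibroblasts and less collagen RNA per fibroblast cannot be told apart in a piece of whole ventricle, and the same holds for every cell type below.

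Some genes whose products fold and modify collagen also fell. Of 16 tested, 0 rose and 6 fell (0 and 3 without restricted arrays 2 and 3). Serpinh1, the chaperone specific to collagen, read 419, 491, 446, 644 and 461 on the restricted arrays and 1130.3, 1030.0, 1193 and 1375 on the ad libitum arrays, without overlap (log2 change of -1.26 ± 0.12, adjusted p = 2.6e-05). The prolyl hydroxylases P4ha1 and P4ha2 fell by log2 changes of -0.84 ± 0.19 and -0.66 ± 0.14 (adjusted p-values of 0.0128 and 0.00906), and restricted and ad libitum arrays overlapped for both. Plod1, a lysyl hydroxylase, fell by -0.48 ± 0.11 on the log2 scale (adjusted p = 0.0155). Without restricted arrays 2 and 3 the adjusted p-values of P4ha2 and Plod1 were 0.0674 and 0.0574. Without ad libitum array 4, P4ha1 and Plod1 were not called (adjusted p of 0.0523 and 0.0568).

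In the basement membrane, the sheet under endothelium and around muscle cells, 0 of 19 genes rose and 4 fell, also without restricted arrays 2 and 3. Col4a1, a chain of its network collagen, was 634, 575, 645, 625 and 593 on the restricted arrays and 1107, 1262, 1309.9 and 1568 on the ad libitum arrays (log2 change of -1.08 ± 0.11, adjusted p = 5.32e-05). Col15a1, a collagen of the basement membrane zone, and Sparc, which binds collagen outside the cell, fell by log2 changes of -1.36 ± 0.16 and -0.98 ± 0.12 (adjusted p-values of 0.000145 and 0.000151). For Sparc, 1 of the 2 other tested probe sets had the same sign. Col4a2 fell by -0.54 ± 0.12 (adjusted p = 0.0181) and was not called without either of ad libitum arrays 2 and 4 (adjusted p up to 0.067). Among 20 matricellular and remodelling genes 1 rose and 5 fell (0 and 4 without restricted arrays 2 and 3). Mmp2, a gelatinase, Mfap5, of elastic microfibrils, and Postn, periostin of active fibroblasts, fell by log2 changes of -0.70 ± 0.16, -0.68 ± 0.16 and -0.94 ± 0.25 (adjusted p-values of 0.0188, 0.0214 and 0.0363). Timp3, an inhibitor of metalloproteinases, rose by 0.61 ± 0.16 (adjusted p = 0.0355). The calls of Postn and Timp3 were lost without restricted arrays 2 and 3 (adjusted p-values of 0.0823 and 0.203). Postn was also lost without any 1 of restricted arrays 2, 3, 4 and 5 and ad libitum arrays 1, 2 and 3 (adjusted p up to 0.0901), Timp3 without any 1 of restricted arrays 2, 3, 4 and 5 and ad libitum arrays 1, 2, 3 and 4 (adjusted p up to 0.0872), Mfap5 without either of ad libitum arrays 1 and 3 (adjusted p up to 0.0653) and Mmp2 without ad libitum array 4 (adjusted p = 0.0699).

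Of 14 fibroblast markers, which include the collagens, 1 rose and 8 fell (1 and 7 without restricted arrays 2 and 3). Lum, lumican of the collagen fibril, fell by a log2 change of -1.07 ± 0.21 (adjusted p = 0.00728), while Dpep1, a membrane dipeptidase, rose by 0.50 ± 0.07 (adjusted p = 0.000778). The summed signal of the 14 markers was 9013 to 11554 on the restricted arrays, 9013 to 9448 on restricted arrays 1, 4 and 5, and 11288 to 12003 on the ad libitum arrays. The part of cell number in the collagen result was not tested.

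Aplnr, the apelin receptor of endothelium and heart, had the largest called fall. Its signal was 33.5, 26.7, 37.9, 31.9 and 44.8 on the restricted arrays, against 185, 198, 265 and 435 on the ad libitum arrays. The ad libitum arrays varied more than the restricted ones, but the groups lay far apart (log2 change of -2.72 ± 0.23, adjusted p = 2.6e-05). Apln, its ligand, overlapped between the groups at 126 to 213 on the restricted arrays and 141 to 203 on the ad libitum arrays (adjusted p = 0.874). Of 18 vascular growth factors and receptors 1 rose and 4 fell (1 and 2 without restricted arrays 2 and 3). Angpt1, which steadies vessels through the receptor Tek, read 284, 271, 288, 231 and 261 on the restricted arrays and 161, 205, 97.5 and 131 on the ad libitum arrays (log2 change of 0.87 ± 0.15, adjusted p = 0.00269). Nrp1, a co-receptor of VEGF, Kdr, its main receptor, and Vegfa fell by log2 changes of -0.48 ± 0.09, -0.64 ± 0.16 and -0.64 ± 0.16 (adjusted p-values of 0.00521, 0.0243 and 0.0264). Kdr and Vegfa were not called without restricted arrays 2 and 3 (adjusted p-values of 0.0668 and 0.135), nor Kdr without any 1 of restricted array 5 and ad libitum arrays 3 and 4 (adjusted p up to 0.0885), nor Vegfa without any 1 of restricted arrays 1, 2 and 5 and ad libitum arrays 1, 3 and 4 (adjusted p up to 0.0794).

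Where endothelial markers changed, they fell. Of 21 tested, which include Aplnr and Kdr, 0 rose and 6 fell (0 and 3 without restricted arrays 2 and 3), and the median log2 change was -0.23. Pcdh12, a protocadherin of endothelial junctions, read 7.89, 34.6, 8.76, 28.6 and 9.28 on the restricted arrays and 74.4, 52.6, 67.3 and 88.4 on the ad libitum arrays (log2 change of -1.88 ± 0.29, adjusted p = 0.00118). The transcription factors Ets1 and Sox18 fell by log2 changes of -0.71 ± 0.15 and -0.40 ± 0.09 (adjusted p-values of 0.00969 and 0.0202). Sox18 was not called without restricted arrays 2 and 3 (adjusted p = 0.134) nor without any 1 of restricted array 2 and ad libitum arrays 3 and 4 (adjusted p up to 0.0763). The summed signal of the 21 markers was 5466 to 6200 on the restricted arrays and 6613 to 8217 on the ad libitum arrays, without overlap. Of 12 mural cell markers, of smooth muscle and pericytes, 1 rose and 0 fell (0 and 0 without restricted arrays 2 and 3). This was Tagln, of the smooth muscle cytoskeleton (log2 change of 0.59 ± 0.15, adjusted p = 0.0324), whose call was also lost without any 1 of restricted arrays 2, 3 and 5 and ad libitum arrays 2, 3 and 4 (adjusted p up to 0.084). The sum of the 12 markers overlapped at 8887 to 10631 on the restricted arrays and 9157 to 10390 on the ad libitum arrays. The part of endothelial cell number in the falls of Aplnr, Pcdh12 and Kdr was not tested.

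Class II molecules show peptides to helper T cells and are made chiefly by macrophages, dendritic cells and B cells. Of 10 tested genes of the class II pathway 0 rose and 4 fell, also without restricted arrays 2 and 3, with a median log2 change of -0.58. H2-Aa, an alpha chain, had a signal of 104, 182, 115, 86.9 and 101 on the restricted arrays and 648, 325, 417 and 467 on the ad libitum arrays. The groups did not overlap (log2 change of -1.94 ± 0.24, adjusted p = 0.000182). Cd74, the invariant chain that guides class II molecules, was 149, 233, 131, 114 and 107 on the restricted arrays and 441, 275, 357 and 410.2 on the ad libitum arrays (log2 change of -1.34 ± 0.24, adjusted p = 0.00379). The beta chains H2-Ab1 and H2-Eb1 fell by log2 changes of -1.14 ± 0.22 and -0.89 ± 0.21 (adjusted p-values of 0.00587 and 0.021), H2-Eb1 without a call when restricted array 5 and ad libitum array 1 (adjusted p up to 0.0696) were left out in turn. Of 12 genes of class I presentation 0 rose and 2 fell (0 and 1 without restricted arrays 2 and 3). These were B2m, the light chain of every class I molecule, with -0.63 ± 0.14 (adjusted p = 0.0115), and Psmb9, a subunit of the immunoproteasome, with -0.59 ± 0.14 (adjusted p = 0.0211, and 0.0798 without restricted arrays 2 and 3).

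A few macrophage markers fell. Of 16 tested 0 rose and 3 fell, with a median log2 change of -0.49, and 0 were called without restricted arrays 2 and 3 (adjusted p-values of 0.101 for C1qb, 0.148 for Adgre1 and 0.0755 for Csf1r). C1qb, a complement subunit of tissue macrophages, read 171, 212, 171, 175 and 194 on the restricted arrays and 423, 244, 309 and 295 on the ad libitum arrays (log2 change of -0.75 ± 0.20, adjusted p = 0.035). Adgre1, the surface protein F4/80, and Csf1r, the receptor of macrophage growth factor, had log2 changes of -0.60 ± 0.17 and -0.41 ± 0.12 (adjusted p-values of 0.0464 and 0.0485). Leaving out 1 array, C1qb was lost without any of restricted arrays 1, 3, 4 and 5 and ad libitum arrays 1, 3 and 4 (adjusted p up to 0.112), Adgre1 without any of restricted arrays 2, 3, 4 and 5 and ad libitum arrays 1, 2, 3 and 4 (adjusted p up to 0.125) and Csf1r without any of restricted arrays 1, 3, 4 and 5 and ad libitum arrays 1, 2, 3 and 4 (adjusted p up to 0.132). The summed signal of 17 macrophage markers was 2938 to 4231 on the restricted arrays, 2938 to 3407 on restricted arrays 1, 4 and 5, and 4204 to 5421 on the ad libitum arrays. Retnla, a secreted protein of alternatively activated mouse macrophages, read 37, 59.2, 35, 7.66 and 27.8 on the restricted arrays and 126, 72.3, 117 and 105 on the ad libitum arrays (log2 change of -1.66 ± 0.34, adjusted p = 0.00802). P2ry6, a receptor for uridine diphosphate, was close to background on every restricted array, at 5.16, 7.74, 2.29, 6.70 and 1.89, against 28.5, 35.3, 24.7 and 32.4 on the ad libitum arrays (log2 change of -1.87 ± 0.29, adjusted p = 0.00126). The part of macrophage number in the class II result was not tested.

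Interferon responsive genes fell where they were called. Of 26 tested 0 rose and 5 fell, and 5 fell without restricted arrays 2 and 3, though not all of them were the same genes. The median log2 change was -0.44, 25 of the 26 were below 0, and 17 had an unadjusted p under 0.05. Rsad2, the antiviral enzyme viperin, read 197, 147, 138, 153 and 142 on the restricted arrays and 283, 275, 343 and 329.6 on the ad libitum arrays, without overlap (log2 change of -0.97 ± 0.12, adjusted p = 0.000166). Ifit1 and Ifit2, which bind viral RNA or its translation machinery, had log2 changes of -0.69 ± 0.16 and -0.52 ± 0.14 (adjusted p-values of 0.0146 and 0.0371). Irf9, the DNA-binding part of the interferon-activated complex, fell by -0.61 ± 0.16 (adjusted p = 0.0305). The fifth call was Igtp, a GTPase induced by interferon gamma, which is named outside the rule for named genes (log2 change of -0.42 ± 0.11, adjusted p = 0.0398). Ifit2 and Igtp were not called without restricted arrays 2 and 3 (adjusted p-values of 0.139 and 0.104). Leaving out 1 array, Irf9 was lost without any of restricted arrays 4 and 5 and ad libitum arrays 1 and 3 (adjusted p up to 0.0821), Ifit2 without any of restricted arrays 1, 2 and 3 and ad libitum arrays 1, 3 and 4 (adjusted p up to 0.117) and Igtp without any of restricted arrays 2, 3 and 4 and ad libitum arrays 1, 3 and 4 (adjusted p up to 0.117).

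Promoters of called class II and interferon responsive genes are shown to compare the letters of their known elements, from 250 bases before to 50 after each gene's start (RefSeq, GRCm38.p6, 5′ to 3′ on the gene's strand). Capitals in the H2 promoters mark CTGATTGG on either strand, the Y box of class II promoters. The H2-Aa window is chr17:34287774-34288073 on the minus strand and the H2-Eb1 window chr17:34305617-34305916 on the plus strand. Capitals in the other promoters mark 2 copies of GAAA with any 2 bases between them, on either strand, the core of the interferon response element. The Rsad2 window is chr12:26456403-26456702 on the minus strand and the Ifit1 window chr19:34640639-34640938 on the plus strand.
H2-Aa: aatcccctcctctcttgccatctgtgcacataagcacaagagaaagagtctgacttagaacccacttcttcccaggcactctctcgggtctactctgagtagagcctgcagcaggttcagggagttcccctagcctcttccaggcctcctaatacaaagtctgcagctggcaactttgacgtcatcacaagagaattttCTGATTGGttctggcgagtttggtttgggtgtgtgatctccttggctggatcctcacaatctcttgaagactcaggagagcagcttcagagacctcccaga
H2-Eb1: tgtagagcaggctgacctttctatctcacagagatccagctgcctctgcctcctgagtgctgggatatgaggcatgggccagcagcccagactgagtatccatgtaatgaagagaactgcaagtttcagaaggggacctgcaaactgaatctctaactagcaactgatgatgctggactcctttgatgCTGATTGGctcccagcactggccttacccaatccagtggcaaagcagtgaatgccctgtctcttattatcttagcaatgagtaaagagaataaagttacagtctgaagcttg
Rsad2: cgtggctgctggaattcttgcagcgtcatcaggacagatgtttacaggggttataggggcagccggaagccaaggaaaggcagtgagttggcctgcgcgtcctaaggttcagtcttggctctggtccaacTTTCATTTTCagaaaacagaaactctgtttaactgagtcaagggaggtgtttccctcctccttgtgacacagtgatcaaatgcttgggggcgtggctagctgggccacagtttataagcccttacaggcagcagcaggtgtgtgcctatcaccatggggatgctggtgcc
Ifit1: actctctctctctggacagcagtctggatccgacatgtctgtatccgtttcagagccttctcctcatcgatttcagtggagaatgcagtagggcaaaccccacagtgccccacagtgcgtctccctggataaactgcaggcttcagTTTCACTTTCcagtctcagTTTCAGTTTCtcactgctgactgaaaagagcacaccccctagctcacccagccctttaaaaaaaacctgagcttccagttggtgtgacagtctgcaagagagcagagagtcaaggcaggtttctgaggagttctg
The Y box letters stood in 4.10% of 32851 mouse promoters of this length and in 4 of the 7 tested class II genes with a promoter sequence, including both called genes that had one, H2-Aa and H2-Eb1. The interferon letters stood in 3.44% of all promoters and in 14 of 23 of the interferon list, 3 of the 5 called (Rsad2, Ifit1 and Igtp). AGGTCA, the half-site of nuclear receptors such as PPAR-alpha, stood in 16.3% of all promoters and in 7 of 26 of the PPAR-alpha list, 3 of 13 called. H2-Ab1 and Cd74 had no entry. A match is a description of the letters in this window.

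Nppb, brain natriuretic peptide, which ventricular muscle releases when stretched, was lower in the restricted mice. Its signal was 863, 665, 677, 807 and 214 on the restricted arrays and 2790.0, 1537, 2724 and 2578 on the ad libitum arrays, without overlap (log2 change of -2.0 ± 0.35, adjusted p = 0.00335). Restricted array 5 and ad libitum array 2 were each well below the rest of their group. Nppa, the atrial peptide, read 1528, 5724, 5566, 1167 and 1086 on the restricted arrays and 1214, 467, 816 and 942 on the ad libitum arrays. It was highest on restricted arrays 2 and 3 and was not called (log2 change of 1.48 ± 0.46, adjusted p = 0.0744, and 0.61 with 0.351 without the pair). The myosin heavy chains Myh6 and Myh7, whose ratio shifts in cardiac load, had log2 changes of 0.11 ± 0.10 and 0.03 ± 0.38 (adjusted p-values of 0.603 and 0.982), and the groups overlapped for both. Nppb was the only call among 19 genes of cardiac load and fetal isoforms, also without restricted arrays 2 and 3. Over all genes tested 5.43% were called, so the count for this list is near the common share.

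The circadian clock runs in heart muscle and is shifted by the timing of meals. Of 21 tested clock genes 3 rose and 1 fell (2 and 1 without restricted arrays 2 and 3). Arntl, the activator BMAL1, was 115, 69.9, 98.9, 105 and 101 on the restricted arrays and 202, 192, 173 and 187 on the ad libitum arrays (log2 change of -0.92 ± 0.15, adjusted p = 0.00197), though its other probe set pointed the opposite way. Per2, a repressor of the loop, was 85.2, 82, 81.3, 94.6 and 97.5 on the restricted arrays and 56.2, 39.7, 51.7 and 36.5 on the ad libitum arrays (log2 change of 0.88 ± 0.16, adjusted p = 0.00359). Tef, an output factor, rose by 0.56 ± 0.10 (adjusted p = 0.0041), and Per3 by 0.46 ± 0.13 (adjusted p = 0.0427). Per3 was not called without restricted arrays 2 and 3 (adjusted p = 0.0559) nor without any 1 of restricted arrays 1, 3, 4 and 5 and ad libitum arrays 1, 2, 3 and 4 (adjusted p up to 0.143). Cirbp, an RNA-binding protein induced by mild cold, read 691, 934, 859, 571 and 762 on the restricted arrays and 293, 308, 251 and 235 on the ad libitum arrays, without overlap (log2 change of 1.46 ± 0.17, adjusted p = 0.000122). Rbm3, its relative, was not analysed here. Body temperature and the time of feeding are not in the labels, and their part in these values was not tested.

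Chaperones were lower where they changed. Of 20 tested heat shock proteins 0 rose and 3 fell (0 and 2 without restricted arrays 2 and 3). Dnajb4, Hsp90aa1 and Dnaja1, cytosolic chaperones and co-chaperones, had log2 changes of -0.45 ± 0.07, -0.55 ± 0.11 and -0.62 ± 0.14 (adjusted p-values of 0.00174, 0.00743 and 0.014). Of 24 genes of folding and stress in the endoplasmic reticulum 0 rose and 3 fell (0 and 2 without restricted arrays 2 and 3). These were Dnajc3, a co-chaperone of BiP, Manf, a secreted stress protein, and Sdf2l1, with log2 changes of -0.46 ± 0.08, -0.67 ± 0.15 and -0.66 ± 0.15 (adjusted p-values of 0.00358, 0.012 and 0.014). Dnaja1 and Manf were not called without restricted arrays 2 and 3 (adjusted p-values of 0.0861 and 0.103), nor Manf without ad libitum array 4 (adjusted p = 0.0501), nor Dnaja1 without either of ad libitum arrays 1 and 4 (adjusted p up to 0.0553).

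Among 26 cell cycle genes 0 rose and 3 fell (0 and 1 without restricted arrays 2 and 3). Ccnd1, cyclin D1, was 311, 396, 391, 395 and 331 on the restricted arrays and 469.6, 508, 531 and 593 on the ad libitum arrays (log2 change of -0.52 ± 0.10, adjusted p = 0.00573). Cdk1, the kinase of mitosis, had a low signal throughout, 8.02, 2.99, 1.79, 4.74 and 1.85 on the restricted arrays and 30.0, 19.4, 31.8 and 21 on the ad libitum arrays (log2 change of -1.79 ± 0.40, adjusted p = 0.0146, and 0.0912 without restricted arrays 2 and 3). Top2a, the topoisomerase of dividing cells, fell by -1.19 ± 0.28 (adjusted p = 0.0177), was not called without restricted arrays 2 and 3 (adjusted p = 0.0711) and was lost without ad libitum array 3 (adjusted p = 0.0691). Of 19 genes of mTORC1 and AMPK signalling 3 rose and 0 fell (2 and 0 without restricted arrays 2 and 3). Eif4ebp1, the repressor of translation that mTORC1 switches off, read 1437, 1450.0, 1145, 1425 and 1350.4 on the restricted arrays and 944, 869, 862 and 772 on the ad libitum arrays (log2 change of 0.65 ± 0.11, adjusted p = 0.00196). Sirt1, a deacetylase active in fasting, and Deptor, an inhibitor of mTOR, rose by 0.41 ± 0.10 and 0.37 ± 0.10 (adjusted p-values of 0.0278 and 0.0428). Sirt1 was not called without restricted arrays 2 and 3 (adjusted p = 0.142). Leaving out 1 array, Sirt1 was lost without any 1 of restricted arrays 2, 3 and 5 and ad libitum arrays 1, 2, 3 and 4 (adjusted p up to 0.0763) and Deptor without any 1 of restricted arrays 1, 2, 4 and 5 and ad libitum arrays 1, 3 and 4 (adjusted p up to 0.144).

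The rest of the 12 largest rises and 12 largest falls belong to no list above, and several lie near background, where the size of a log2 change depends on the added 5.13. Chrna2, a nicotinic receptor subunit, read 61.9, 70.2, 45.4, 71.6 and 43.5 on the restricted arrays and 14.5, 4.52, 20.6 and 4.09 on the ad libitum arrays (log2 change of 2.10 ± 0.43, adjusted p = 0.00838). Inmt, a methyltransferase of indolamines, was well above background at 475, 623, 552, 425 and 547 on the restricted arrays and 218, 197, 189 and 185 on the ad libitum arrays (log2 change of 1.38 ± 0.16, adjusted p = 0.000122). Clec1b, a receptor of platelets, was low in both groups, at 16.5, 22.3, 25.4, 19.4 and 39 on the restricted arrays and 0.563, 12.7, 0.736 and 1.90 on the ad libitum arrays. Its log2 change was 1.84 ± 0.33 (adjusted p = 0.00355). Ing2, which reads methylated histones, Zc3h6, a zinc finger protein, and Tcf23, a helix-loop-helix factor, rose by log2 changes of 1.51 ± 0.29, 1.45 ± 0.26 and 1.30 ± 0.22 (adjusted p-values of 0.00568, 0.00355 and 0.00242), without overlap. Myc, a transcription factor of growth, at 40.3, 40.4, 21.1, 22.5 and 41.7 on the restricted arrays and 25, 3.24, 14 and 6.32 on the ad libitum arrays, did overlap (log2 change of 1.27 ± 0.36, adjusted p = 0.0482). It was not called without restricted arrays 2 and 3 (adjusted p = 0.119) or without any 1 of restricted arrays 1, 2, 3 and 5 and ad libitum arrays 2, 3 and 4 (adjusted p up to 0.144). Epn3, an epsin of endocytosis, and Crybb1, a crystallin, fell by -1.85 ± 0.40 and -1.74 ± 0.34 (adjusted p-values of 0.0111 and 0.00589). The change of Crybb1 was -1.12 without restricted arrays 2 and 3. With the mean log2 signal of Myl7, Myl4 and Sln as a covariate in the limma fit, Chrna2, Epn3 and Crybb1 were not called (adjusted p-values of 0.0567, 0.0607 and 0.0674).

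**Figure D5:**
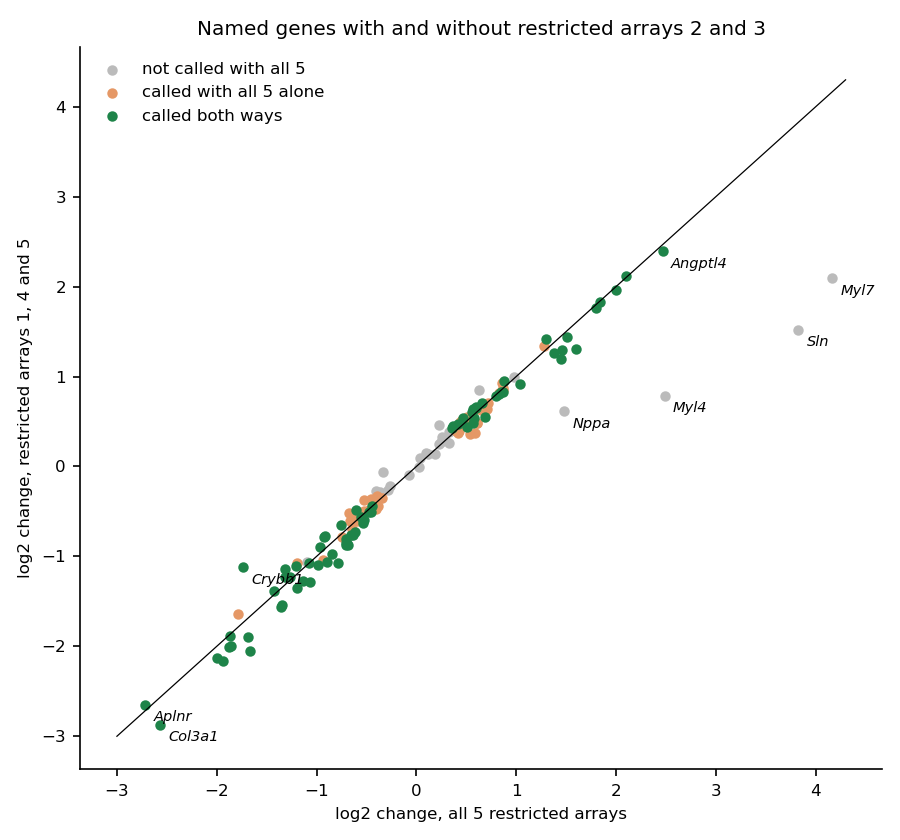
Log2 change, restricted minus ad libitum, of the 141 genes named in the text, with all 5 restricted arrays on the x axis and with restricted arrays 1, 4 and 5 on the y axis. The line marks equal values. Points in green and orange were called with all 5 arrays, while Myl7, Sln, Myl4 and Nppa, which were not called, lie far below it.

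The leptin treated mice ate the same amount, so the restricted arrays were also tested against theirs. Of the 13359 genes 1819 (13.6%) differed, 764 higher (5.72%) and 1055 lower (7.9%) in the restricted mice, and without restricted arrays 2 and 3 the count was 1029, 353 higher and 676 lower. Aplnr had the largest fall here too, with 33.5, 26.7, 37.9, 31.9 and 44.8 on the restricted arrays and 425, 614, 571, 429 and 504 on the leptin arrays (log2 difference of -3.68 ± 0.22, adjusted p = 1.03e-07). H2-Aa was at 104, 182, 115, 86.9 and 101 on the restricted arrays and 1077, 1152, 1078, 690.3 and 1139 on the leptin arrays (log2 difference of -3.09 ± 0.22, adjusted p = 7.64e-07). Its wild type level was 734 to 1354, and every restricted array had less H2-Aa signal than any array of the other 3 groups. Cd74 and Col3a1 were lower than under leptin by log2 differences of -2.16 ± 0.23 and -2.71 ± 0.34 (adjusted p-values of 2.21e-05 and 0.000104).

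Among the called genes, Chrna2 and Cirbp had the largest rises over the leptin group, with log2 differences of 2.57 ± 0.41 and 2.05 ± 0.16 (adjusted p-values of 0.00061 and 1.08e-06), followed by Arrdc4 with 1.85 ± 0.21, Gnmt with 1.80 ± 0.32 and Acot1 with 1.70 ± 0.32 (adjusted p-values of 4.01e-05, 0.00159 and 0.0025). Gnmt, which methylates glycine, and Psat1, of serine synthesis, averaged 47.5 ± 11.6 and 68 ± 8.40 in restricted mice and 9.82 ± 2.40 and 19.5 ± 6.40 in leptin treated mice (adjusted p = 4.45e-05 for Psat1). Psat1 was also called against the ad libitum mice (log2 change of 1.04 ± 0.20, adjusted p = 0.00488), and Gnmt was not (adjusted p = 0.113). Aldh1a2, which makes retinoic acid, was at background on every restricted array, at 1.18 to 4.15, and at 33.4 to 54.1 on the leptin arrays (log2 difference of -2.71 ± 0.33, adjusted p = 6.57e-05). On the ad libitum arrays Aldh1a2 read 1.03, 16.1, 8.77 and 26.7, which overlapped the restricted arrays, and it was not called against them (adjusted p = 0.0803). Ano10, an anoctamin, averaged 129.9 ± 16.2 in restricted mice, 648 ± 269 in leptin treated mice and 331 ± 30.8 in ad libitum mice, and the restricted mice were called lower against both (adjusted p-values of 6.1e-06 against leptin and 0.00193 against ad libitum).

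Fuel genes also differed at equal intake. Of the 30 PPAR-alpha genes 16 were higher and 1 lower in restricted than in leptin treated mice (13 and 0 without restricted arrays 2 and 3). Angptl4 averaged 626 ± 140.4 in restricted mice and 224 ± 83.7 in leptin treated mice (log2 difference of 1.53 ± 0.28, adjusted p = 0.00173). Pnpla2 averaged 2558 ± 309 in restricted mice and 1590.2 ± 304 in leptin treated mice (adjusted p = 0.00103), and its inhibitor G0s2 had 350.3, 279, 381, 315 and 389.9 on the restricted arrays and 640.2, 808, 780.2, 534 and 629.6 on the leptin arrays, without overlap (log2 difference of -0.97 ± 0.12, adjusted p = 6.24e-05). Bdh1 averaged 774 ± 148 in restricted mice and 1677 ± 151 in leptin treated mice (adjusted p = 1.44e-05). Of 26 interferon responsive genes 0 were higher and 14 lower than under leptin, and of 16 macrophage markers 0 were higher and 11 lower (12 lower of each list without restricted arrays 2 and 3).

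Some genes were not called in that comparison or changed in the other direction. Col5a3 averaged 77.4 ± 11.6 in restricted mice and 72.5 ± 11.6 in leptin treated mice (log2 difference of 0.09 ± 0.13, adjusted p = 0.704). Per2 and Tef had log2 differences from the leptin group of 0.05 ± 0.15 and 0.05 ± 0.10 (adjusted p-values of 0.857 and 0.799), Vegfa had -0.08 ± 0.15 (adjusted p = 0.77) and Clec1b 0.03 ± 0.31 (adjusted p = 0.959). Arntl was higher in restricted mice, at 98.1 ± 17, than in leptin treated mice, at 59.2 ± 11.7 (log2 difference of 0.68 ± 0.14, adjusted p = 0.00471), while the ad libitum mice had 188 ± 11.8. Myh7 was lower, at 287 ± 112 in restricted mice and 701 ± 254 in leptin treated mice (log2 difference of -1.23 ± 0.36, adjusted p = 0.0315, and 0.0679 without restricted arrays 2 and 3).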

How the data were processed

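RNA of mouse ventricular myocardium was hybridised to Affymetrix arrays, 1 per sample, and grouped by the labels. Each probe set has a linear intensity on each array in the deposited table. Per the submitters' processing notes the authors made it with MAS5, which weighs perfect-match against mismatch probes. No setting of MAS5 is given in the sources used here. After trimming 2% at either end, every array had a mean of 100.001, so the arrays had been scaled and a difference in total RNA per cell is not visible.

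Of 45101 probe sets, 64 were controls. GEO's platform annotation gave 34945 sets 1 symbol and 932 several, and listed 9160 with none. Only sets with 1 symbol were used, 34741 of which matched a RefSeq gene table by Entrez identifier (GRCm38.p6, 0 symbols changed). The set with the highest mean stood for each of 18193 genes. Signals were taken as log2(signal + 5.13), the 20th percentile of all signals, which understates changes of dim genes. Genes with a mean under the 40th percentile (4.36) were left out, which left 13359 tested genes. With limma 3.58.1 (R 4.3.3) all 18 arrays entered 1 fit with a term for every group, with two-sided tests and Benjamini-Hochberg adjustment over all genes. Adjusted p-values come from that fit, log2 changes carry its standard errors and signals the SD between arrays. Differences of atrial signal were tested with an exact permutation test (SciPy 1.17.1). The procedure was tested on simulated data. The number of arrays limits the precision.

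Genes were named by a rule: the 12 called genes with the largest change each way, passing over unnamed clones (17 were called), up to 4 members of each list described, with the smallest p, a set of fuel, load and matrix genes, the 3 atrial genes, and the 6 called genes with the largest difference each way from leptin. Cpt1b and Ucp2 were not analysed here. The comparison, gene lists, markers and rule were chosen with earlier results of these data known, and the promoter motifs after the values were seen.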

Additional observations from a re-analysis of the deposited data

Results flagged for a closer look

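The restricted and the ad libitum arrays of each of the 141 named genes were searched for an array far from the rest of its group on the log2 scale. Of 282 such groups 17 held one, and chance alone gives about 1 in 20. For the atrial genes it was ad libitum array 1, with a signal of 438 for Myl7 (2.52 to 4.73 on the other ad libitum arrays), 430.2 for Myl4 (47.8 to 65.5) and 98.1 for Sln (0.956 to 1.54).

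Nppb was low on restricted array 5, at 214 (665 to 863 on the other restricted arrays), and on ad libitum array 2, at 1537 (2578 to 2790 on the other ad libitum arrays). Restricted array 4 stood apart for Lpl, at 9008 (6841 to 7174), P4ha2, at 232 (163 to 180.0), Sdf2l1, at 26.0 (42.4 to 50.4), and Igtp, at 137 (186 to 199.7). Restricted array 1 stood apart for Lepr, at 48.0 (24.7 to 29.5), Fkbp5, at 405 (559 to 625), and Retn, at 93.7 (26.5 to 36.6). Ad libitum array 4 stood apart for Ets1, at 575 (373 to 382), Postn, at 236 (315 to 331), and Per3, at 26.8 (39.2 to 40.6). Ad libitum array 1 also stood apart for Hk2, at 1531 (1719 to 1749), and for Sdf2l1, at 61.4 (70.6 to 72.1).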

How the results depend on the processing

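The number of genes called between restricted and ad libitum mice was 725 in the reported fit. It was 323 with the mean log2 signal of Myl7, Myl4 and Sln as a covariate, 358 without restricted arrays 2 and 3 and 355 when the fit held only the 2 groups, which leaves fewer arrays to estimate the spread. Leaving out 1 array gave 444 to 737. Quantile normalization, other pseudocounts, other filters, the mean of all probe sets and array weights gave 512 to 923. Against the leptin group the 1819 calls became 1198 with the covariate and 1029 without the pair, and 1382 to 1662 with 1 array left out. Of the 101 called members of the pathway lists, 58 were called with the covariate, 66 without the pair and 63 in the fit of 2 groups, and 68 to 91 with 1 array left out. The titles number the arrays in each group, and the labels do not say what arrays of the same number share. Deviations of same-numbered restricted and ad libitum arrays had correlations of -0.13 to 0.07, and those of unlike numbers reached 0.34. With the replicate number as a block in a limma fit of the 2 groups alone, the calls numbered 0 against ad libitum (1912 genes at an unadjusted p under 0.05), 370 against leptin and 0 in the lists. The block leaves less to estimate the spread from, and restricted array 5 has no ad libitum array of its number. The mean log2 differences of atrial signal with 1 array left out were 3.38 to 5.59 for Myl7, 1.83 to 3.35 for Myl4 and 2.95 to 5.02 for Sln.

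Of 141 named genes, 114 were called, a share raised by the rule, which in part took called genes and the smallest p-values. Of these 74 were also called without restricted arrays 2 and 3, 67 with the atrial covariate and 71 without each array in turn. Over all 725 called genes, these counts were 323, 287 and 327. The arrays of the 2 groups did not overlap for 102 of the 114. These genes were called on the same arrays, so that count is no separate support, and it was not made over all genes. Of the 8 genes whose sign turned under an alternative, Foxo3 had been called and the others had not. With 1 array left out Lepr had log2 changes of -0.0973 to 0.1607, Myh7 of -0.2394 to 0.2475 and Apln of -0.1869 to 0.0336, and Retn of -0.3526 to 0.5928. Myh7 turned to -0.3048 with the covariate and -0.0102 without the pair. Retn turned to -0.0216 with array weights. Apln turned to 0.0061 with the covariate and 0.0336 under the replicate block. The mean of all probe sets turned Dgat1 to -0.0583 and Foxo3 to -0.0091. The covariate turned Myl4 to -0.0531 and Sln to -0.1116. It is made from these genes and Myl7, so it takes out most of their difference by construction. The cause of the other turns was not tested. Of 54 called named genes with another probe set on the array, the other sets had the same sign for 46.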

Other observations

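Some single members of other lists changed between restricted and ad libitum mice. Over all genes tested 5.43% were called, and 2.68% without restricted arrays 2 and 3. A single call in a list of this size is near that share. Slc8a1, the sodium-calcium exchanger that clears calcium from heart muscle, had a signal of 95.5, 71.3, 92.9, 146 and 83.9 on the restricted arrays and 161, 229, 156 and 197 on the ad libitum arrays, without overlap (limma, log2 change of -0.91 ± 0.16, adjusted p = 0.00341, and 0.0301 without restricted arrays 2 and 3). It was the only call among 16 genes of calcium handling. Of 19 genes of the TGF-beta pathway 1 rose and 1 fell (0 and 1 without restricted arrays 2 and 3). Ltbp4, which tethers latent TGF-beta to the matrix, was 385, 583, 511, 473 and 412 on the restricted arrays and 621, 684, 792 and 1029 on the ad libitum arrays (log2 change of -0.71 ± 0.15, adjusted p = 0.0111). Klf10, an early TGF-beta response gene, rose by 0.71 ± 0.16 (adjusted p = 0.0152, and 0.0935 without restricted arrays 2 and 3).

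Of 21 genes of insulin, IGF and FoxO signalling 1 rose and 1 fell (0 and 1 without restricted arrays 2 and 3). Igfbp5, a binding protein of insulin-like growth factors, was 216, 325, 392, 225 and 207 on the restricted arrays and 464, 422, 418 and 549 on the ad libitum arrays (log2 change of -0.79 ± 0.18, adjusted p = 0.0184), and its call was lost without ad libitum array 4 (adjusted p = 0.0663). Foxo3, a factor of fasting and atrophy, had 0.51 ± 0.14 (adjusted p = 0.045) and lost its call without each of the 9 arrays in turn. With the mean of all its probe sets its change was -0.0091. Among 24 atrophy and autophagy genes 2 rose and 1 fell, and 0 were called without restricted arrays 2 and 3. These were Map1lc3b, of the autophagosome membrane, Trim54, of the sarcomere, and Ulk2, of autophagy initiation, with log2 changes of 0.43 ± 0.10, 0.40 ± 0.10 and -0.34 ± 0.09 (adjusted p-values of 0.0161, 0.0255 and 0.0385). Of 21 glucocorticoid responsive genes 2 rose and 0 fell, Sult1a1, a sulfotransferase, with 0.82 ± 0.18 (adjusted p = 0.014) and Pdk4, and 0 were called without restricted arrays 2 and 3. Fkbp5, the most used marker of that response, was not called (log2 change of 0.54 ± 0.16, adjusted p = 0.0535).

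Of 17 potassium channel genes 2 rose, Kcnh2 and Kcnj5 with 0.51 ± 0.12 and 0.54 ± 0.15, and 1 fell, Kcna5 with -0.43 ± 0.12 (adjusted p-values of 0.0202, 0.0418 and 0.0456), and 0 were called without restricted arrays 2 and 3. Thra, the main thyroid hormone receptor of heart muscle, rose by 0.56 ± 0.14 (adjusted p = 0.0224, and 0.0467 without restricted arrays 2 and 3). Gsta3, a glutathione transferase, was the only call among 21 antioxidant genes, with 0.86 ± 0.21 (adjusted p = 0.0212, and 0.0606 without restricted arrays 2 and 3).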
